A study of Mus musculus with 18 samples.

Results

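The genes described here are the nuclear genes of the mitochondrial respiratory chain and ATP synthase. They were chosen by name from the gene table, as protein-coding genes whose symbol begins with Nduf followed by a, b, c, s or v, with Uqcr, with Cox and a digit from 4 to 8, or with Atp5, together with the 4 genes Sdha, Sdhb, Sdhc and Sdhd. This gave 96 gene entries among 55487 in the table, of which 77 had enough reads to be tested. The entries comprised 37 for complex I, 8 for complex I assembly factors whose symbols begin with Ndufaf, 4 for complex II, 8 for complex III, 21 for complex IV and 18 for complex V. Ndufa4 and its relative Ndufa4l2 were placed in complex IV, where the Ndufa4 protein is now assigned. The symbol Atp5o stood on 2 entries, and Cox5b-ps and Ndufb1-ps carry pseudogene names although the table types them as protein coding.

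The respiratory chain passes electrons from NADH through complex I, and from succinate through complex II, to ubiquinone, then through complex III and cytochrome c to oxygen at complex IV, and complex V uses the resulting proton gradient to make ATP. Most subunits are encoded in the nucleus and imported, while a few core subunits of complexes I, III, IV and V are encoded in mitochondrial DNA, so that the complexes need products of both genomes. Complex II is built from nuclear products alone. In macrophages and microglia, inflammatory stimuli are known to shift energy metabolism from oxidative phosphorylation toward glycolysis.

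RNA was sequenced from BV2, an immortalised mouse microglial line, in 6 groups of 3 libraries. A line labelled BAK1-KD was collected at 0 h (control) and after 12 h and 24 h with oxyhemoglobin, the oxygenated hemoglobin that blood releases after a hemorrhage, and so was a line labelled NC; the dose on the labels is 10 mM. Bak1 encodes a pore-forming protein of the outer mitochondrial membrane. All groups share the BV2 background and its serum-containing medium, no library was collected at 12 h or 24 h without oxyhemoglobin, and time in culture and exposure can therefore not be told apart. The labels do not say how the BAK1-KD line was made, whether it is 1 clone, what NC stands for, or whether same-labelled libraries were grown as separate cultures, and the p-values cover the spread between these libraries, which may be technical.

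The libraries held 4361313 to 6008810 counts, and the 96 entries took 0.295% to 0.355% of them. Bak1 had 39 counts over the 9 BAK1-KD libraries and 25 over the 9 NC libraries, so the targeted transcript was not lower in the libraries labelled BAK1-KD at this depth, and KD and NC are used below as labels only. All 11 microglia and macrophage markers examined were detected, with P2ry12 and Aif1, markers of resting microglia and of the microglial lineage, at 8 and 43 counts over all libraries. The 3 neuron markers were at 0 in every library, of 6 erythroid markers only Alas2 had counts, and the 3 astrocyte and 3 oligodendrocyte markers summed to 1.13 and 8.41 CPM (counts scaled to the library's total) at most. The summed level of the microglia and macrophage markers ranged from 427 to 845 CPM between libraries and averaged 649, 753 and 591 CPM in KD libraries at 0, 12 and 24 h and 472, 607 and 473 CPM in NC libraries at those times; its part in the results below was not tested. In these bulk samples, fewer cells of a type and less RNA per cell cannot be told apart. The 6 libraries numbered 2 had scaling factors of 1.06 to 1.14, against 0.907 to 1.03 in the other 12, and results that rest on them are given with and without them.

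The promoters shown here hold the palindrome bound by nuclear respiratory factor 1 (NRF1), a regulator known for driving respiratory chain genes. RefSeq start sites on GRCm38.p6 were available for 76 of 95 symbols, giving 81 windows of the 250 bases before the start. The 10-letter NRF1 motif, which is its own reverse complement and is spelled by the capitals in each window, lay in 5 of these windows (6.17%) and in 0.782% of all 32851 windows of the same length. These 5 windows are printed 5′ to 3′ with the motif in capitals.
Ndufa11 (chr17:56717512-56717761, plus strand): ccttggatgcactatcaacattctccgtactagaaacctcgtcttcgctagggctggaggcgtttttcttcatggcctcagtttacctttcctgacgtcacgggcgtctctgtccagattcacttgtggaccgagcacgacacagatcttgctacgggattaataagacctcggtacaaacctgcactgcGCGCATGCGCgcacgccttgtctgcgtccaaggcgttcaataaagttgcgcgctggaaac
Ndufaf4 (chr4:24897833-24898082, plus strand): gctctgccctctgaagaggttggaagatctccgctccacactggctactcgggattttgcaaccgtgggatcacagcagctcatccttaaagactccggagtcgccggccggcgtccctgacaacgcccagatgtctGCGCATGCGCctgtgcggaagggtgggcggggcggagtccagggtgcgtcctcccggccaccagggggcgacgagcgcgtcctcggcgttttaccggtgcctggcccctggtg
Cox6a1 (chr5:115348959-115349208, minus strand): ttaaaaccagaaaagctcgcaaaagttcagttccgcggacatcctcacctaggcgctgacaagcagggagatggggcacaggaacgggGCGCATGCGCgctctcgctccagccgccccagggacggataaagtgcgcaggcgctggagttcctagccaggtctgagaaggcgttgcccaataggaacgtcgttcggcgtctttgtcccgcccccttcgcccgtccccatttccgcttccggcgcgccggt
Atp5g2 (chr15:102671048-102671297, minus strand): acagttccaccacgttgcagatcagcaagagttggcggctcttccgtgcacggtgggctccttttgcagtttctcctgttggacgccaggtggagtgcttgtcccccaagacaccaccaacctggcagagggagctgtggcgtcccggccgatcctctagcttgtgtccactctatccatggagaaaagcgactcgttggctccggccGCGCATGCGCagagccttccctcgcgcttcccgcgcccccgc
Atp5k (chr5:108434400-108434649, minus strand): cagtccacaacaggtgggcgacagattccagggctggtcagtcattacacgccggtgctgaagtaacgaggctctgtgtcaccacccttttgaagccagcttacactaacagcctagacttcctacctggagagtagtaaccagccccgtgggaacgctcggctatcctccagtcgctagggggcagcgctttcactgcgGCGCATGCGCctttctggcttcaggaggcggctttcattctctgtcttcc
Ndufa11 is an accessory subunit of complex I, Ndufaf4 a complex I assembly factor, Cox6a1 the widely expressed form of cytochrome oxidase subunit 6a, Atp5g2 a copy of the ATP synthase c subunit and Atp5k its e subunit. The windows differ in where the motif falls, and beyond it they share no alignment made here. The ETS-family motif CCGGAAG, searched on both strands, was in 17.3% of the members' windows and 6.91% of all windows, and a 10-letter YY1 motif was in 1.23% and 0.301%. TATAAA was in 9.88% of the members' windows and 12.4% of all, CCAAT in 43.2% and 33.8%, and the E-box CANNTG, on both strands as the others, in 63.0% and 66.2%. The median GC content was 57.2% in the members' windows and 52.4% in all windows. A match describes letters and not binding. Of the 5 genes, Ndufa11, Ndufaf4 and Atp5g2 were tested and none passed the threshold in any of the 12 comparisons, with log2 fold changes of −0.75 to 0.84.

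Levels of different genes were compared in the deposited TPM, which divide counts by the table's gene length and scale each library to a fixed total. Sdhd, a membrane anchor of succinate dehydrogenase (complex II), stood first at 787 ± 87.3 TPM (SD over 18 libraries) and made up 22.9% of the members' summed TPM. Uqcrfs1, the Rieske iron-sulfur protein of complex III, followed at 639 ± 68.6 TPM and 18.6%, and Ndufa8, an accessory subunit of complex I, at 523 ± 97.0 TPM and 15.2%. In complex V the catalytic β subunit gene Atp5b was highest at 86.5 ± 13.0 TPM. In complex IV the entry Cox5b-ps was highest at 40.3 ± 12.3 TPM, and among the assembly factors Ndufaf3 at 8.99 ± 2.14 TPM. The lowest tested member was Ndufv1, the flavoprotein that takes electrons from NADH, in complex I at 0.77 ± 0.20 TPM, Ndufaf4 among the assembly factors at 0.61 ± 0.28 TPM, the membrane anchor Sdhc in complex II at 7.94 ± 2.09 TPM, Uqcr11 in complex III at 2.17 ± 1.31 TPM, Cox7a2l in complex IV at 2.40 ± 0.64 TPM and the c-subunit gene Atp5g1 in complex V at 0.36 ± 0.17 TPM. Tested members of complex I, whose subunits stand in fixed ratios in the assembled complex, had deposited TPM values up to 677-fold apart. In complex V they were up to 242-fold apart, between Atp5b and Atp5g1. For that pair no fixed ratio holds, since Atp5g2 and Atp5g3 encode the same c subunit as Atp5g1.

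These levels moved with the number of transcripts annotated for each gene. The length in the table equalled the summed length of all annotated transcripts, rather than the length of the merged exons, for 96 of 96 members and for 98.6% of 55141 entries found in the GENCODE annotation. The 11 members with counts and a single annotated transcript had a median of 136 TPM, and the 82 with 2 or more had a median of 3.98 TPM, a ratio of 34.1. The 3 highest members, Sdhd, Uqcrfs1 and Ndufa8, each have 1 annotated transcript. Among the 82, TPM was higher where more exon bases lay in 1 transcript alone (Spearman's rho 0.59, a description over genes that share the libraries), and the same rho was 0.58 over 8970 protein-coding genes with 2 or more transcripts and at least 180 counts. Dividing counts by merged exon length left a gap of 4.20 on the log2 scale between the medians of the single-transcript and the other members, against 5.09 with the deposited length, and dividing by the bases found in 1 transcript alone left 3.25. How the authors' counting treated reads that fall in several transcripts is not stated, and its part in these levels was not tested. A TPM set between subunits is accordingly given as the deposited value and not as a ratio of mRNA amounts, and the comparisons between groups below are each within 1 gene.

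**Figure D1:**
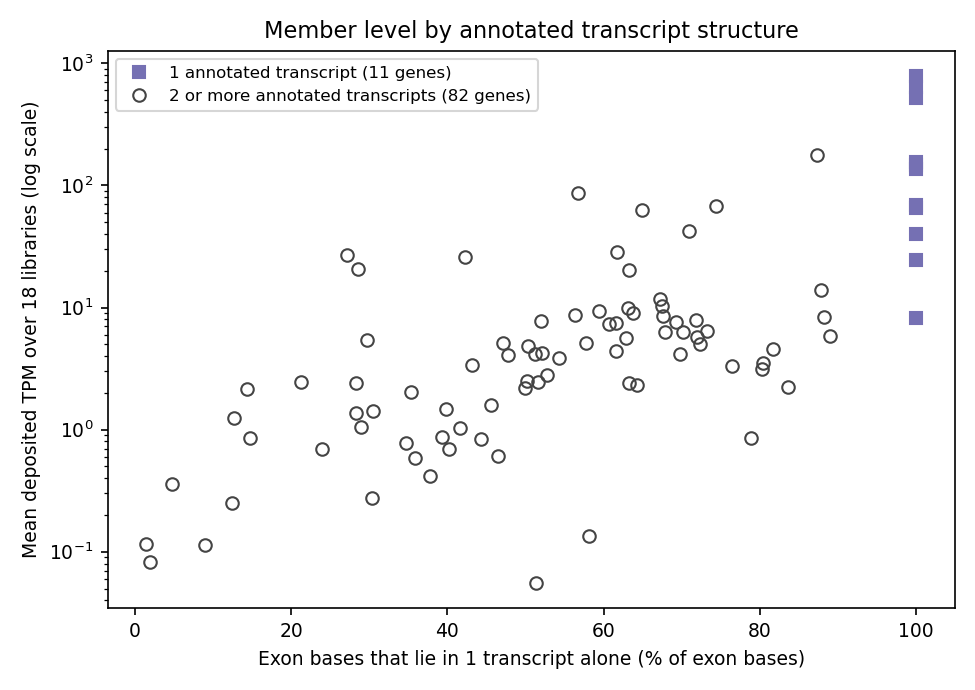
Mean deposited TPM over 18 libraries (log axis) against the percentage of a gene's exon bases that lie in 1 annotated transcript alone, 1 point per member with counts. The 11 single-transcript members (squares, at 100%) have a median of 136 TPM and the 82 others (circles) a median of 3.98 TPM.

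The members of each complex were also summed in each of the 6 groups. On deposited TPM the highest and lowest group means differed 1.32-fold for complex I, 1.35-fold for the assembly factors, 1.23-fold for complex II, 1.26-fold for complex III, 1.30-fold for complex IV and 1.25-fold for complex V, where the pooled SD of libraries within groups was 0.0972 to 0.238 on the log2 scale. Complex III summed to 587 ± 102, 600.5 ± 120 and 634 ± 89.4 CPM in KD libraries at 0, 12 and 24 h and to 716 ± 71.8, 755 ± 121 and 723 ± 84.5 CPM in NC libraries (SD, n = 3 each, scaled by trimmed mean of M values, TMM). Complex II summed to 940 ± 128, 753 ± 83.6 and 807 ± 87.6 CPM in KD libraries and to 901 ± 156, 942 ± 124 and 895 ± 110 CPM in NC libraries. On the CPM scale the libraries of each of the 15 pairs of groups overlapped in every complex. On deposited TPM some pairs did not overlap, and these were not counted. There complex II summed to 985 to 1039 TPM in KD libraries at 0 h and 815 to 916 TPM at 12 h. Complex III summed to 642 to 721 TPM in KD libraries at 0 h and 830 to 909 TPM in NC libraries at 12 h. Libraries with the same number deviated together within the lines and at 12 h, and by numbered pair the sums of complexes I to V were each lower in KD than in NC libraries at 12 h in all 3 pairs. Some of these pairs were nearly equal. Complex I had 998.4 CPM in KD against 998.7 CPM in NC replicate 1, and complex IV 144.7 against 145.9 CPM in replicate 2. The sums share the same libraries and scaling, so they are not separate observations. Complex II summed to 828, 663 and 770 CPM in KD libraries at 12 h, against 1037, 801 and 987 CPM in NC libraries at 12 h and 953, 806 and 1060 CPM in KD libraries at 0 h, lower in all 3 pairs of both comparisons. Complex III summed to 598, 482 and 721 CPM in KD libraries at 12 h, against 795, 619 and 852 CPM in NC libraries at 12 h. Of 42 combinations of 6 sums and 7 comparisons, 17 had all 3 pairs on one side, and 3 pairs cannot give a two-sided exact p under 0.25. On deposited TPM single genes made up most of 2 sums, Sdhd 87.4% of complex II and Uqcrfs1 84.8% of complex III. The CPM sums follow counts, where other members weigh more. In KD control replicate 1, Sdhd had 2785 counts and Sdha 1256, and Uqcrfs1 had 1929 and Uqcrc1 474. In TPM the sums also move with CT010467.2, an entry that took 36.2% to 56.1% of all TPM in a library, and which group was highest changed for each of the 6 sums between TPM, CPM and TPM rescaled without that entry. So rescaled, the groups named above as apart on deposited TPM for complexes II and III overlapped. Complex IV then summed to 214 to 251 in KD libraries at 0 h and 282 to 345 in the NC libraries of all times. This sum includes Cox6a2, described below as lower in KD libraries, with a mean of 24.3 of 156 deposited TPM over all libraries. Its part in this gap was not tested. Other pairs of groups were not counted on this scale, and in CPM these libraries overlapped.

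**Figure D2:**
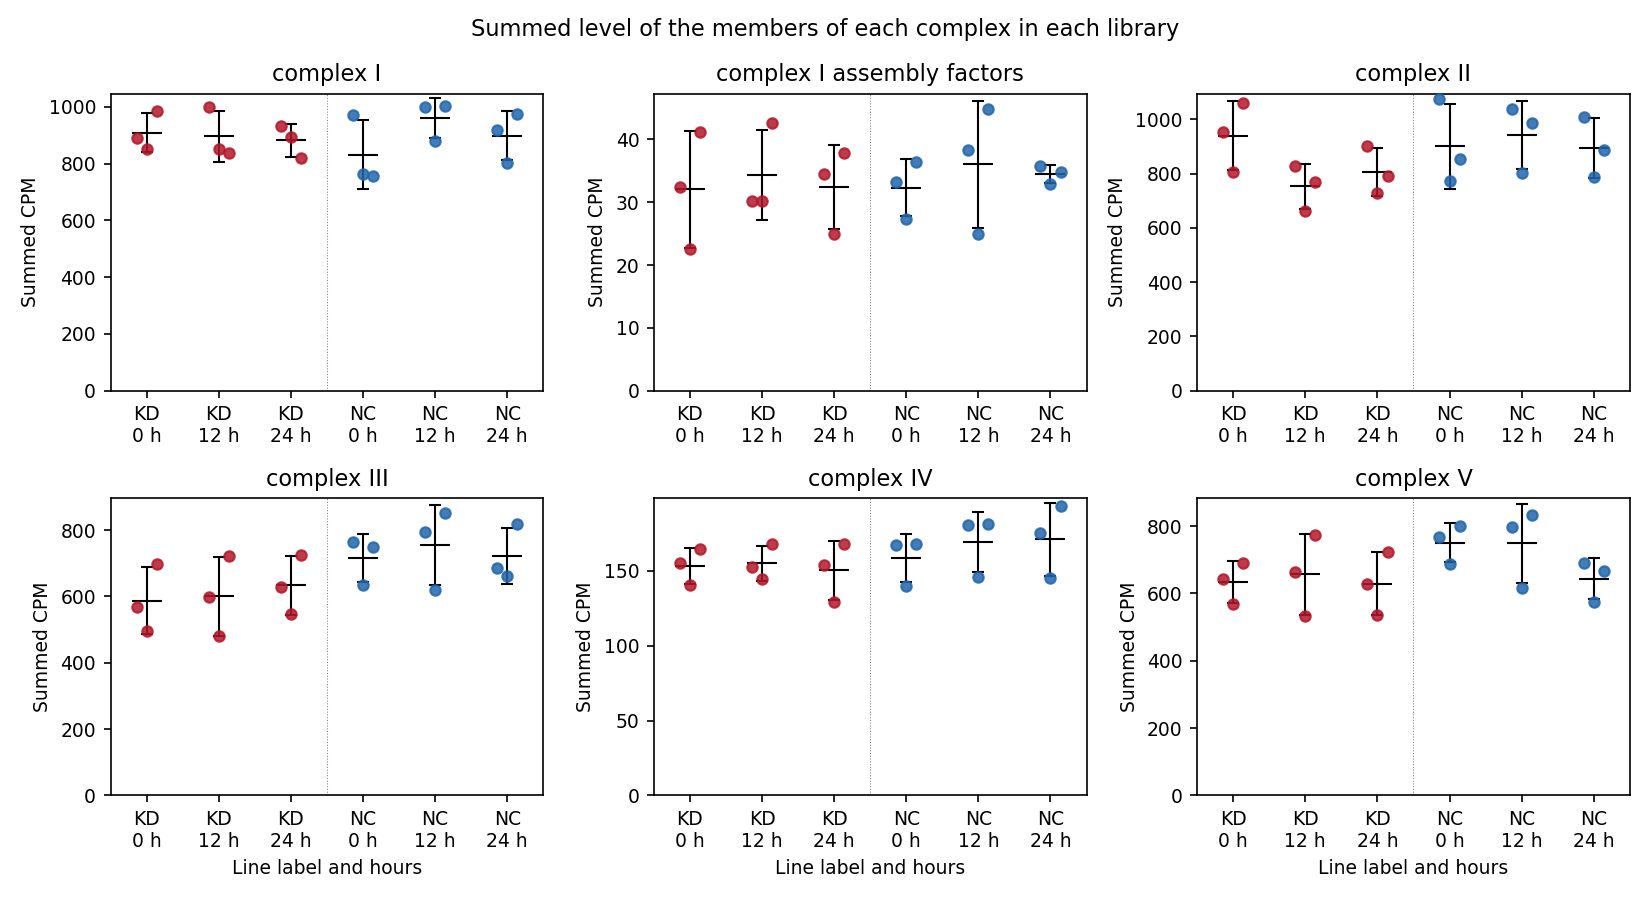
Summed TMM-scaled CPM of the members of each complex in each of 18 libraries (points), with the group mean and SD (bars, n = 3), KD libraries left of NC libraries and times from 0 to 24 h. In each panel the libraries of different groups overlap.

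Of the 77 tested members, Cox6a2 was the one that separated the lines. It encodes the heart and skeletal muscle form of cytochrome oxidase subunit 6a (complex IV) and lies at chr7:128205435-128206387 on the minus strand (GRCm38), with 1 annotated transcript. In KD libraries it had 11, 13 and 13 counts at 0 h, 26, 27 and 25 at 12 h, and 44, 20 and 20 at 24 h. In NC libraries it had 101, 129 and 64 counts at 0 h, 48, 42 and 67 at 12 h, and 46, 73 and 75 at 24 h. At each of the 3 times all KD libraries were below all NC libraries. Scaled, the means were 2.34 ± 0.36, 5.29 ± 0.31 and 5.55 ± 1.89 CPM in KD libraries at 0, 12 and 24 h, and 18.5 ± 4.68, 10.5 ± 2.88 and 13.1 ± 1.23 CPM in NC libraries (SD, n = 3 each). The exons overlap those of the neighbouring Itgad over 10.3% of their length, and Itgad had 1 count in all libraries together. Its widely expressed partner Cox6a1, which has 2 annotated transcripts, had 16 counts over all 18 libraries, against 844 for Cox6a2.

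**Figure D3:**
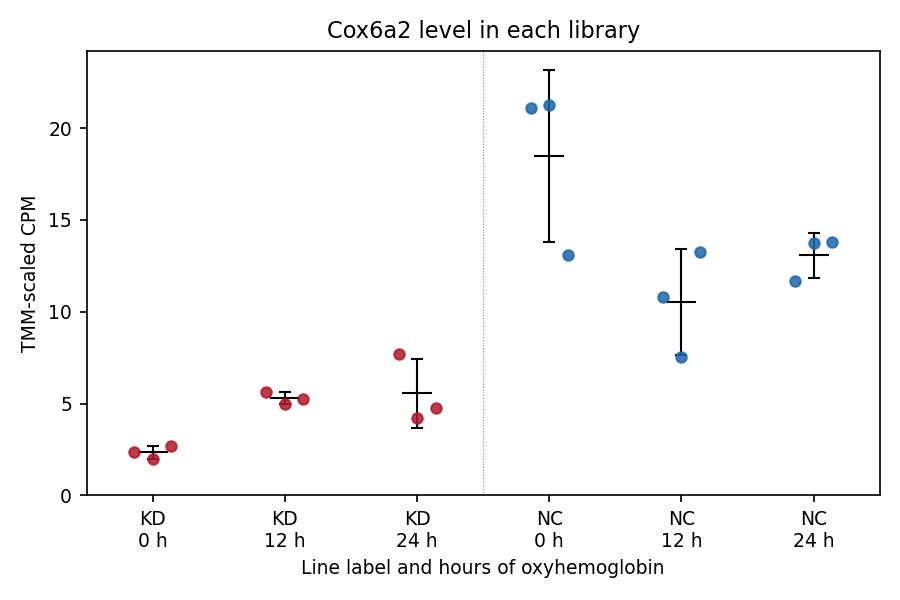
TMM-scaled CPM of Cox6a2 in each library (points), with group mean and SD (bars, n = 3), for KD (left) and NC (right) at 0, 12 and 24 h. KD means are 2.34, 5.29 and 5.55 CPM and NC means 18.5, 10.5 and 13.1 CPM.

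Between the lines without oxyhemoglobin, Cox6a2 was lower in KD libraries than in NC libraries by a log2 fold change of −2.98 ± 0.31 (SE; edgeR quasi-likelihood test, Benjamini-Hochberg adjusted p = 3.04e-06), the 10th smallest p among 15996 genes. It was the only 1 of 77 members called there, where 2.06% of all genes were called in either direction and 1.3% were lower. The median over the members was 0.01 on the log2 scale, and 55 of 77 had a 95% confidence interval within 1 log2 unit of zero on both sides. Leaving out any 1 of the 18 libraries kept the Cox6a2 difference between −3.18 and −2.86 and past the threshold.

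At 12 h no member was called between KD and NC libraries by edgeR, DESeq2 or limma, where edgeR called 1.60% of all genes. Of the 77 members, 4 had an unadjusted p below 0.05, a looser threshold for which no share of all genes is given. Cox6a2 stood at −0.99 ± 0.29 (adjusted p = 0.093). The libraries with the same number deviated together in these groups, and with that number as a block 5 members were called, against 10.9% of all genes: Cox6a2 at −0.99 ± 0.27 (adjusted p = 0.013), Sdhd at −0.37 ± 0.09 (adjusted p = 0.0030), Atp5b at −0.36 ± 0.08 (adjusted p = 0.0025), Uqcrfs1 at −0.37 ± 0.09 (adjusted p = 0.0036) and Ndufb9, an accessory subunit of complex I, at −0.34 ± 0.11 (adjusted p = 0.039), all lower in KD libraries. The exons of Ndufb9 overlap Gm49356 over 19.5% of their length.

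At 24 h Cox6a2 was lower in KD libraries by −1.22 ± 0.28 (adjusted p = 0.029), 1 of 77 members called where 1.39% of all genes were, 0.925% lower. Without KD replicate 2 or 3, or NC replicate 1, 2 or 3, of that time it stood at −1.05, −1.12, −1.29, −1.18 and −1.18, each with an adjusted p above 0.05, and fitted on these 2 groups alone, without the libraries numbered 2, or with limma it was not called. Averaged over the 3 times, Cox6a2 was lower in KD libraries by −1.73 ± 0.17 (adjusted p = 4.39e-07), again the 1 member called, where 9.99% of all genes were called and 5.98% were lower, and it stayed past the threshold in each of the 18 fits that left out 1 library and without the libraries numbered 2. For this average 72 of 77 members had an interval within 1 log2 unit of zero, as had 82.9% of all genes.

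With oxyhemoglobin, most members moved by less than their error in both lines. Across the 77, the highest and lowest of the 6 group means in CPM differed by a median of 1.45-fold, and 70 of them by less than 2-fold. The 7 others were Ndufb10, Ndufaf2, Ndufaf5, Ndufaf8, Uqcr11, Cox6a2 and Cox8b. Several of these had few counts per library, with 3 to 15 for Ndufaf2 and for Ndufaf5, 1 to 23 for Uqcr11 and 0 to 16 for Cox8b. Such a range is wider by noise at few counts, and no range over all genes is given beside it.

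In KD libraries at 12 h against 0 h, Cox6a2 rose by 1.18 ± 0.33 on the log2 scale (adjusted p = 0.016), and no other member was called by edgeR or DESeq2, where 16% of all genes were called and 7.93% rose. All 3 KD libraries at 12 h (4.99 to 5.62 CPM) were above all 3 at 0 h (1.98 to 2.70 CPM). Without KD control replicate 2 the change was 1.05 (adjusted p = 0.074). With the library number as a block 3 members were called, against 28.8% of all genes: Cox6a2, Sdhd at −0.37 ± 0.09 (adjusted p = 0.00059) and Sdha, the catalytic flavoprotein of complex II, at −0.29 ± 0.10 (adjusted p = 0.021). The medians were −0.02 over the members and 0.00 over all genes, and by complex they ran from −0.25 for the 4 genes of complex II to 0.28 for the 7 of complex III.

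In NC libraries at 12 h against 0 h, Ndufb2 and Cox6a2 fell, 2 of 77 members where 12.2% of all genes were called and 5.55% fell. Ndufb2, an accessory subunit in the membrane arm of complex I, had 10.1, 10.2 and 8.72 CPM at 12 h, against 13.6, 19.6 and 15.9 CPM at 0 h, with no overlap between the groups, and fell by 0.76 ± 0.21 on the log2 scale (adjusted p = 0.021). Cox6a2 fell by 0.81 ± 0.26 (adjusted p = 0.045), and NC replicate 3 at 12 h (13.3 CPM) lay above NC replicate 3 at 0 h (13.1 CPM). Without a filter on low counts neither was called. The Ndufb2 call was lost without NC control replicate 2 (−0.62, adjusted p = 0.12), NC 12 h replicate 1 (−0.79, adjusted p = 0.052) or NC 12 h replicate 3 (−0.70, adjusted p = 0.091), and the Cox6a2 call was lost in 7 of 18 such fits, with −0.64 the smallest change, without NC 12 h replicate 2. With the library number as a block 7 members were called, against 24.7% of all genes: the same 2, and 5 that rose, namely Ndufa1 (0.49), Ndufa2 (0.50), Ndufa8 (0.45), Ndufa4 (0.49) and Atp5md (0.70), with adjusted p from 0.00095 to 0.043. Ndufa8 had 278, 234 and 287 CPM at 12 h, against 249, 170 and 173 CPM at 0 h, so the groups overlapped while each numbered pair was higher at 12 h. Ndufa1, Ndufa2 and Ndufa8 are accessory subunits of complex I, and Atp5md is a small membrane subunit of complex V. The exons of Ndufa2 overlap Tmco6 over 11.5% of their length.

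In KD libraries at 24 h against 0 h, Cox6a2 rose by 1.26 ± 0.33 (adjusted p = 0.014) and Ndufa10 fell by 0.86 ± 0.25 (adjusted p = 0.031), 2 of 77 members where 9.59% of all genes were called. Ndufa10, an accessory subunit of complex I, had 7.01, 5.86 and 7.38 CPM at 24 h, against 9.61, 13.4 and 13.7 CPM at 0 h, without overlap. Ndufa10 lost its call without KD control replicate 2 (−0.80) or 3 (−0.81), or KD 24 h replicate 1 (−0.90), 2 (−0.80) or 3 (−0.95), and Cox6a2 lost it without KD control replicate 2 (1.13) or KD 24 h replicate 1 (0.93). With the library number as a block 6 members were called, against 21.5% of all genes. Besides Cox6a2 and Ndufa10, Sdha fell by 0.39 ± 0.10 (adjusted p = 0.0024) and Cox4i1, the main form of cytochrome oxidase subunit 4, by 0.52 ± 0.19 (adjusted p = 0.043), while Uqcrq, a small subunit of complex III, rose by 0.83 ± 0.27 (adjusted p = 0.022) and Atp5l, the g subunit of ATP synthase, by 0.36 ± 0.13 (adjusted p = 0.047). Sdha had 221, 195 and 166 CPM at 24 h, against 268, 244 and 250.1 CPM at 0 h, so all 3 treated libraries were lower. Cox4i1 had 14.9, 14.6 and 13.3 CPM at 24 h, against 20.7, 16.0 and 26.0 CPM at 0 h, also without overlap.

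In NC libraries at 24 h against 0 h, Ndufb8 fell by 0.72 ± 0.21 (adjusted p = 0.033), 1 of 77 members where 7.57% of all genes were called and 2.91% fell. Ndufb8, an accessory subunit in the membrane arm of complex I, had 10.9, 10.7 and 14.2 CPM at 24 h, against 18.6, 18.5 and 22.3 CPM at 0 h, without overlap. The call was lost without NC control replicate 3 (−0.65), NC 24 h replicate 1 (−0.68) or NC 24 h replicate 2 (−0.67). In KD libraries Ndufb8 had 13.7, 16.5 and 16.7 CPM at 24 h, against 20.9, 20.9 and 22.5 CPM at 0 h, a log2 fold change of −0.46 ± 0.20 (adjusted p = 0.19). With the library number as a block 4 members were called in NC libraries, against 18.9% of all genes: Ndufb8, Ndufa2 at 0.44, Ndufa4 at 0.44 and Atp5b at −0.31, with adjusted p from 0.0033 to 0.033. Without the libraries numbered 2 no member was called by edgeR in these 4 comparisons with 0 h. At an unadjusted p below 0.05 there were 2 and 6 members in KD libraries at 12 and 24 h and 5 at each time in NC libraries. This fit has fewer libraries per group, and no share of all genes is given beside it. Its counts are therefore not read as a result about the members. DESeq2 was not run without the libraries numbered 2.

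**Figure D4:**
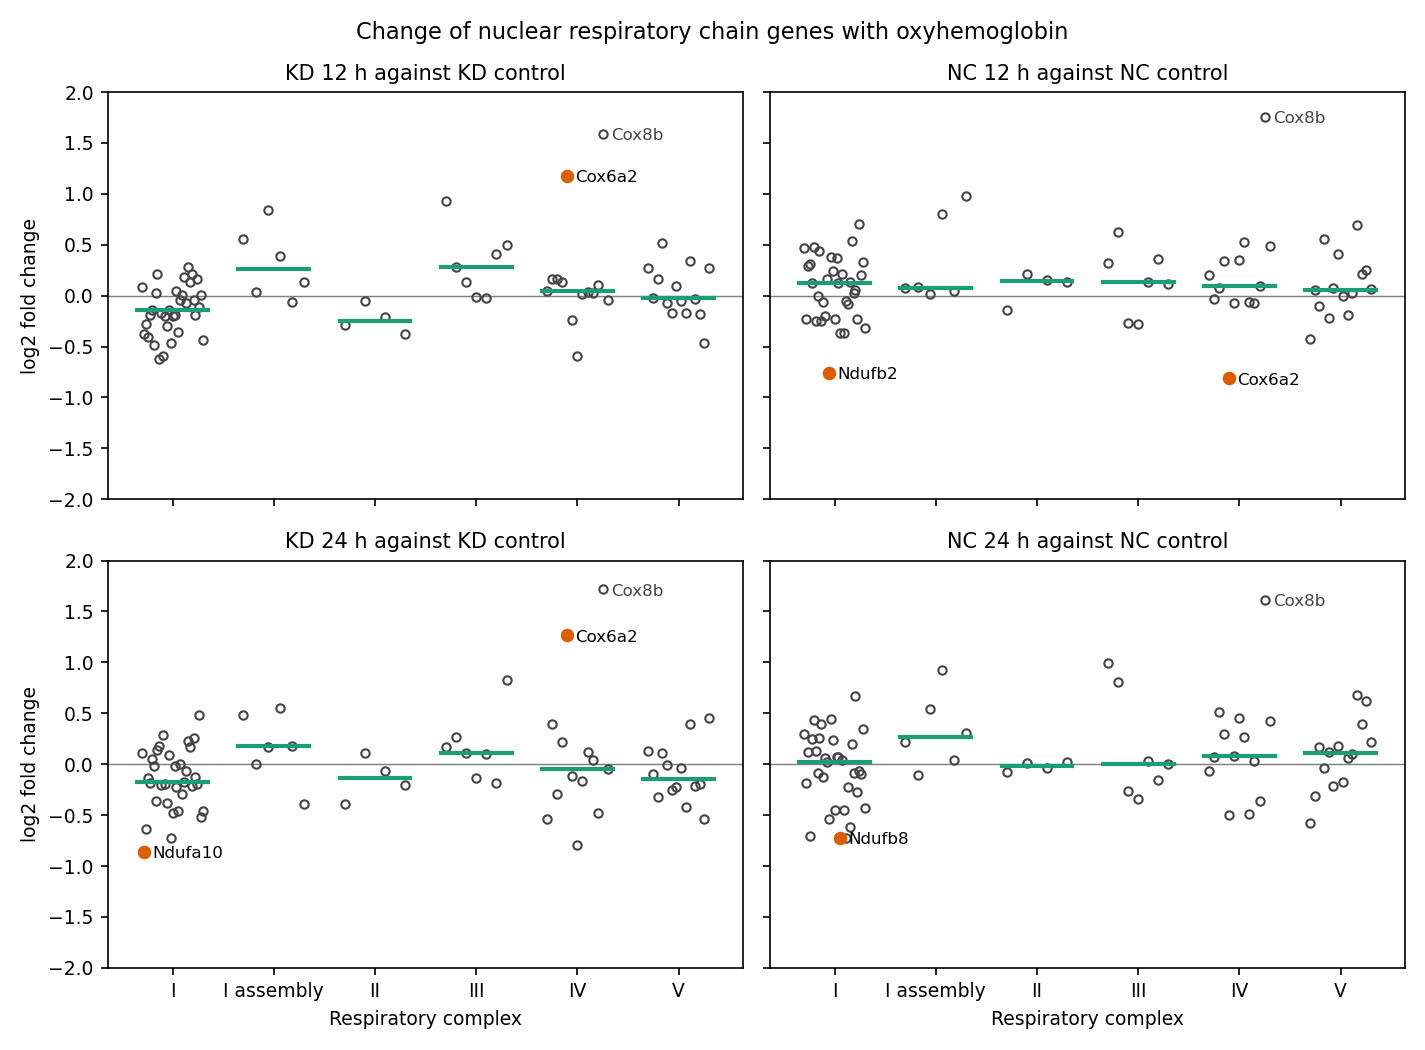
Log2 fold change of each of 77 tested members at 12 h (top) and 24 h (bottom) against 0 h, in KD libraries (left) and NC libraries (right), by complex. Filled points passed an adjusted p of 0.05, open points did not, and bars mark each complex's median, which lies between −0.25 and 0.28.

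Cox8b, the muscle form of cytochrome oxidase subunit 8 in rodents, had the largest positive log2 fold change of the members in these 4 comparisons without passing the test in any. It had 9, 16 and 5 counts in KD libraries at 12 h and 12, 9 and 11 at 24 h, against 5, 0 and 5 at 0 h. In NC libraries it had 14, 8 and 11 counts at 12 h and 6, 16 and 8 at 24 h, against 6, 2 and 2 at 0 h. The log2 fold changes were 1.59 ± 0.71 and 1.72 ± 0.71 in KD libraries and 1.75 ± 0.70 and 1.61 ± 0.71 in NC libraries, with adjusted p of 0.14, 0.15, 0.12 and 0.20. The 95% confidence interval reached from 0.11 to 3.06 for KD libraries at 12 h, so neither a small nor a several-fold change can be told from these counts.

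At 24 h against 12 h no member was called in either line by edgeR or DESeq2. The limma test on log2(TPM + 1) called 1 in each line, Cox4i1 in KD libraries and Atp5b in NC libraries. By edgeR 4.28% of all genes were called in KD libraries and 2.76% in NC libraries, at an adjusted p below 0.05. At the looser unadjusted p below 0.05 there were 3 members in KD libraries and 4 in NC libraries. No share of all genes is given for that looser threshold. With the library number as a block, Cox4i1 was called in KD libraries at −0.59 ± 0.19 (adjusted p = 0.034, 12.3% of all genes called), and Atp5b in NC libraries at −0.37 ± 0.08 (adjusted p = 0.0018, 11.5% of all genes called). Atp5b had 403, 306 and 327 CPM in NC libraries at 24 h, against 502, 363 and 475 CPM at 12 h, lower in each numbered pair.

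The response of the lines to oxyhemoglobin was compared by an interaction term. Cox6a2 had the largest positive term, 1.99 ± 0.42 at 12 h (adjusted p = 0.082, 20th smallest p of 15996) and 1.76 ± 0.42 at 24 h (adjusted p = 0.22, 27th). No member was called by edgeR at either time. At an unadjusted p below 0.05, for which no share of all genes is given, there were 1 member at 12 h and 5 at 24 h. DESeq2 called 1 member at 12 h, Cox6a2, and none at 24 h. The limma test on log2(TPM + 1) called none at either time. By edgeR 0.075% and 0.0313% of all genes were called at an adjusted p below 0.05. The opposite directions of Cox6a2, up in KD libraries and down in NC libraries, thus rest on a difference that did not pass the threshold in this fit.

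Catalytic and core subunits of 4 complexes showed log2 fold changes against 0 h of 0.49 or less in size. Ndufs1, the largest iron-sulfur subunit of complex I, had log2 fold changes of −0.08 and −0.07 in KD libraries at 12 and 24 h and −0.08 and −0.22 in NC libraries, with SE 0.24 to 0.25. Ndufv1 had −0.11 and 0.49 in KD libraries and 0.20 and −0.10 in NC libraries, with SE 0.35 to 0.36. The iron-sulfur subunit Sdhb had −0.05 and 0.11 in KD libraries and 0.21 and 0.01 in NC libraries, with SE 0.18. Uqcrfs1 had −0.03 and 0.10 in KD libraries and 0.13 and 0.03 in NC libraries, with SE 0.17. Cox5a, a nuclear subunit of complex IV, had 0.17 and 0.39 in KD libraries and −0.04 and 0.08 in NC libraries, with SE 0.29 to 0.30. None of these changes passed the test, and the smallest adjusted p was 0.48.

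Uqcrc1, a core subunit of complex III, and Atp5a1, the α subunit of ATP synthase, differed between libraries of different numbers within each group. In KD libraries Uqcrc1 had 101, 62.8 and 126 CPM at 0 h, 84.7, 67.8 and 166 CPM at 12 h, then 99.8, 63.8 and 150 CPM at 24 h. In NC libraries it had 123, 117 and 204 CPM at 0 h, 130, 89.1 and 151 CPM at 12 h, then 123, 86.4 and 161 CPM at 24 h. The library numbered 3 was the highest and the one numbered 2 the lowest in all 6 groups. Between the lines at 0 h the log2 fold change of Uqcrc1 was −0.62 ± 0.37 (adjusted p = 0.57), with all 3 numbered pairs lower in KD libraries. In KD libraries Atp5a1 had 66.6, 66.6 and 93.2 CPM at 0 h, 58.8, 54.7 and 159 CPM at 12 h, then 63.0, 54.8 and 130 CPM at 24 h. In NC libraries it had 77.8, 101 and 150 CPM at 0 h, 75.4, 61.3 and 108 CPM at 12 h, then 67.1, 71.7 and 82.3 CPM at 24 h, and the library numbered 3 was again the highest of each group. What the number marks is not stated.

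**Figure D5:**
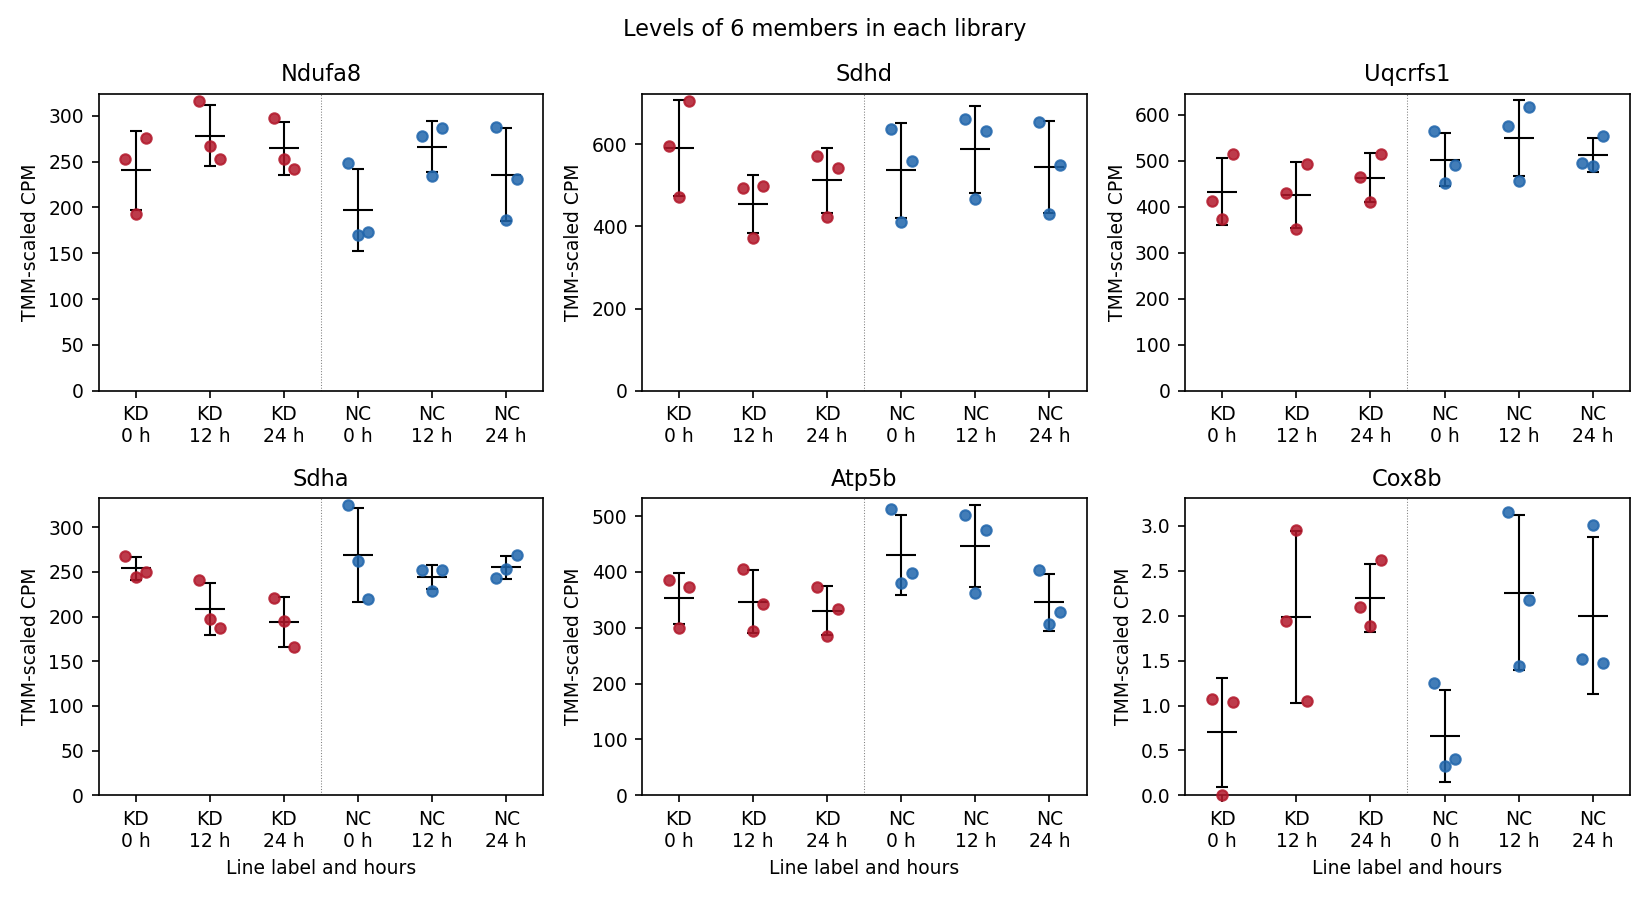
TMM-scaled CPM of 6 members in each library (points; within a group, replicates 1 to 3 from left to right), with group mean and SD (bars, n = 3), KD left of NC. Sdha in KD libraries is at 166 to 221 CPM at 24 h and 244 to 268 CPM at 0 h, and Cox8b reaches 3.15 CPM at most.

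By counts, the subunits with tissue-specific copies listed here were read mostly from the widespread copy, with the exception of subunit 6a, read mostly from Cox6a2. Cox4i1 had 1630 counts over all libraries and its lung form Cox4i2 60, Cox6b1 had 86 and the testis form Cox6b2 12, and Cox7a2 had 204 and the muscle form Cox7a1 26. Cox8a had 277 counts and Cox8b 145. Ndufa4 had 3228 counts and Ndufa4l2, a relative induced by hypoxia, 80. Of the c-subunit genes, which encode the same mature protein, Atp5g3 had 2218 counts, Atp5g2 737 and Atp5g1 187. Cox6b1, Cox6b2, Cox4i2, Cox7a1 and Ndufa4l2 had too few reads for a test. The sizes of these counts also carry the transcript structure described above, since Cox6a2 and Cox8b have 1 annotated transcript each.

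The mitochondrially encoded subunits, partners of these genes, gave the following values in the same fits: of 9 tested, 4 fell in KD libraries at 12 h (median log2 fold change −0.94), where 8.06% of all genes fell. In NC libraries 4 fell (median −1.03), where 5.55% of all genes did. At 24 h against 12 h 3 rose in KD libraries (median 0.96), where 2.81% of all genes rose. In that comparison 8 rose in NC libraries (median 1.53), where 1.63% did. The nuclear members' medians in those comparisons were −0.02, 0.09, −0.02 and −0.06, and the comparisons share libraries at 12 h.

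Among the carriers, Cycs, which encodes cytochrome c, rose in KD libraries by 1.20 ± 0.26 at 12 h (adjusted p = 0.0019) and 1.15 ± 0.26 at 24 h (adjusted p = 0.0044), 1 of 3 tested genes of its list. Of all genes 16% and 9.59% were called in KD libraries at 12 and 24 h, 12.2% and 7.57% in NC libraries, and 9.99% in the average over times. The calls in the lists that follow stand beside these shares, and whether they exceed them was not tested. Of 38 tested assembly factors outside the name rule, Cox17, a copper chaperone for complex IV, rose in KD libraries at 12 h (0.44) and 24 h (0.49) and in NC libraries at 12 h (0.63) and 24 h (0.76), with adjusted p from 0.0013 to 0.040, and Coa5 rose in KD libraries at 12 h (0.43, adjusted p = 0.043). In the average over times 3 of the 38 were lower in KD libraries, where 5.98% of all genes were, a share near the background. Coa3, Coa4 and Nubpl stood at −0.49, −0.74 and −0.46. Of 19 regulators of respiratory genes, Sirt3, a mitochondrial deacetylase, fell in KD libraries at 12 h by 0.85 ± 0.21 (adjusted p = 0.0055) and at 24 h by 0.75 ± 0.21 (adjusted p = 0.020). Gabpb2 fell in KD libraries at 12 h by 0.75 and Gabpb1 rose in NC libraries at 24 h by 0.76; both encode β subunits of the ETS factor GABP. Twnk and Tfb1m, for mitochondrial DNA and ribosomal RNA upkeep, were lower in KD libraries in the average, by −0.38 each.

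Of 18 citric acid cycle and pyruvate dehydrogenase genes, Dld rose in KD libraries at 12 h (0.77), Dlst and Pdhx at 24 h (0.54 and 0.53) and Dlst in NC libraries at 24 h (0.45). Of all genes 16%, 9.59% and 7.57% were called in those 3 comparisons. Between the lines 2.06% were called at 0 h, 1.60% at 12 h and 9.99% in the average. Dlat, a pyruvate dehydrogenase subunit, was lower in KD than in NC libraries at 12 h (−0.75, adjusted p = 0.042) and in the average (−0.55, adjusted p = 0.0016). Dld was also lower in the average (−0.42, adjusted p = 0.041). The largest changes named from these lists were in the list of brakes on respiration. The lists were chosen with earlier results of these data known, so their ranking is not a result. Acod1, whose product makes itaconate, an inhibitor of succinate dehydrogenase, rose by 3.38 ± 0.19 and 2.39 ± 0.19 in KD libraries at 12 and 24 h and by 4.16 ± 0.20 and 3.27 ± 0.19 in NC libraries, with adjusted p from 1.78e-12 to 5.44e-09. Nos2, whose product makes nitric oxide, an inhibitor of complex IV, rose by 1.69 ± 0.28 and 2.61 ± 0.29 in KD libraries and by 2.16 ± 0.28 and 3.01 ± 0.29 in NC libraries. Pdk1, which restrains pyruvate dehydrogenase, fell by 0.95 and 0.94 in KD libraries and by 1.12 and 0.83 in NC libraries. Hilpda, a hypoxia-induced lipid droplet protein, was lower in KD than in NC libraries at 0 h by −1.59 ± 0.17 and at 12 h by −1.29 ± 0.16, with adjusted p of 4.10e-06 and 0.00016. Within KD libraries Hilpda rose by 1.29 at 12 h and 1.26 at 24 h. Within NC libraries it also rose at 12 h, by 0.99, and its log2 fold change at 24 h against 12 h was −0.97. Lonp1, a matrix protease, was lower in KD than in NC libraries at 0 h by −0.89 ± 0.21 (adjusted p = 0.026). Pdk3, a relative of Pdk1, was higher in KD libraries in the average by 0.75 ± 0.14 (adjusted p = 0.00085). Of 9 tested genes of that list, 5 rose and 1 fell in KD libraries at 12 h, 3 rose and 1 fell at 24 h, and in NC libraries 3 rose and 1 fell at 12 h and 2 rose and 1 fell at 24 h. Of all genes 16%, 9.59%, 12.2% and 7.57% were called in these comparisons. Of 18 import and cristae genes, Timm8b rose in NC libraries at 12 h (0.79) and 24 h (0.72), and Timm44 was lower in KD libraries in the average (−0.42).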

How the data were processed

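RNA-seq counts per gene and TPM per gene were deposited by the authors as a table each for 18 libraries. Per the submitters' processing notes, bcl2fastq, HISAT2 2.2.0, featureCounts, DESeq2 and the build GRCm38 were used; the annotation, the strand setting and the treatment of reads shared by transcripts or genes are not stated. Where exons of 2 genes overlap, their reads cannot be told apart.

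The counts were tested with edgeR 4.0.16 (R 4.3.3), with TMM scaling, filterByExpr at a minimum count of 10, a robust quasi-likelihood fit of 6 group means over 18 libraries and Benjamini-Hochberg adjustment over 15996 genes at 0.05; log2 fold changes are given ± SE. Alternatives were other scalings and filters, DESeq2 1.42.0, limma 3.58.1 on log2(TPM + 1) or log2(TPM + 0.1), the compared groups alone, the library number as a block, and each library left out. The fits without the libraries numbered 2, TPM rescaled without CT010467.2, levels per merged or unique exon base and the sums by numbered pair were chosen after seeing the data. The code was tested on simulated data. The library number was taken to pair libraries where every same-numbered pair correlated above 0.1 in its deviations from the group means; the lowest correlation was 0.108 to 0.26 in the comparisons within a line and 0.2 between the lines at 12 h, and 0.0703 and 0.0946 between the lines at 0 h and 24 h. Intervals cover the spread between libraries; 3 per group limits their precision.

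Named genes were the members past the threshold in a comparison and the highest and lowest tested member of each complex. Also named were 10 catalytic or core subunits and tissue-specific copies. In other pathway lists those with the 2 lowest adjusted p past the threshold were named. Some others past it, such as Pdk1 and Nubpl, were added. In KD libraries at 12 h the rises of Hif1a (1.21) and Lonp1 (0.64) also passed and were left out of the Results. The members and lists were chosen with earlier results of these data known. The members called only with the block, the 7 with the widest range of group means and the 5 with the NRF1 motif were named after their values were seen. Annotation and positions came from GENCODE on GRCm38, and promoters from RefSeq on GRCm38.p6.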

Additional observations from a re-analysis of the deposited data

How the results depend on the processing

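The lower Cox6a2 level in KD libraries, without oxyhemoglobin and averaged over times, passed the threshold under every alternative run. The other members' calls depended on at least 1 of them. With the library number as a replicate block the number of members called was 7 and 4 in NC libraries at 12 h and 24 h against 0 h, 1 at 24 h against 12 h, 3, 6 and 1 in the same KD comparisons, 6, 5 and 2 between KD and NC libraries at 0, 12 and 24 h, 10 in the average over times, and 2 and 1 for the interactions at 12 h and 24 h. By the correlation cut-off of 0.1 given above, the numbers were taken to pair libraries within the lines and at 12 h, though no label says so. Between the lines at 0 h and 24 h, libraries numbered 3 fell just under it, at 0.0703 and 0.0946. Those numbered 1 and 2 correlated there at 0.166 to 0.444, so the cut-off does not settle the pairing. At 0 h and 24 h, in the average and in the interactions the libraries may share only a number. In those fits 9.35%, 9%, 24.4%, 2.07% and 1.21% of all genes were called. The block made Cox6a2 pass in both interactions (2.00 and 1.75) and Sdhd in that at 12 h (−0.51), and Uqcrc1 lower in KD libraries at 0 h (−0.63, adjusted p = 0.00016) and in the average (−0.39, adjusted p = 1.9e-05).

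Leaving out 1 library gave 0 to 3 calls for NC libraries at 12 h, 0 to 2 at 24 h and 0 to 0 at 24 h against 12 h, 0 to 1, 0 to 2 and 0 to 0 for KD libraries, 1 to 1, 0 to 1 and 0 to 1 between the lines at 0, 12 and 24 h, 1 to 1 for the average, and 0 to 1 and 0 to 0 for the interactions. Fitted on the compared groups alone, NC libraries at 12 h and 24 h and the lines at 24 h gave 0 calls and KD libraries at 24 h gave 1, Ndufa10. The added fit without the 6 libraries numbered 2 left 0 calls in the comparisons with 0 h and between the lines at 24 h, and Cox6a2 alone at 0 h (−2.75) and in the average (−1.63). No share of all genes is given for that fit. Without a count filter there was 1 call for NC libraries at 12 h, now Ndufs5, 1 for KD libraries at 24 h, 2 for the average and 1 for the interaction at 12 h. DESeq2 called 2 members in the average, Cox6a2 and Atp5j, and 1 in the interaction at 12 h. limma, for each of log2(TPM + 1) and log2(TPM + 0.1) with a mean TPM of at least 1, called 1 member for NC libraries at 12 h, Ndufa8, which rose, and neither Ndufb2 nor Cox6a2, Atp5b in place of Ndufb8 for NC libraries at 24 h, 1 at 24 h against 12 h in each line, 1 for KD libraries at 24 h, 0 between the lines at 24 h and 2 in the average, and log2(TPM + 0.1) called 1 in the interaction at 12 h. Without the TPM filter it called 1 for NC libraries at 24 h against 12 h, 1 for KD libraries at 24 h, 0 between the lines at 24 h and 2 in the average. The causes were not tested.

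The log2 change of Cox6a2 in KD libraries at 24 h against 12 h, 0.09, reversed to −0.18 and −0.20 with limma at the pseudocounts 1 and 0.1, to −0.18 with no TPM filter and to −0.24 without KD 24 h replicate 1, the lowest of −0.24 to 0.24 when 1 library was left out. The log2 ratio of the highest to the lowest group for the summed levels was 0.21 (complex I), 0.17 (assembly factors) and 0.19 (complex IV) in CPM, and 0.20 (complex I) and 0.46 (complex V) in TPM without CT010467.2; leaving out 1 library gave 0.32 to 0.49, 0.30 to 0.55, 0.28 to 0.39, 0.30 to 0.38, 0.32 to 0.50 and 0.30 to 0.42 for complex I, the assembly factors and complexes II to V. The fit on the compared groups alone was not run for the average, which uses all groups. Members with few counts, such as Cox8b, are limited by depth.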

Other observations

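Of the 19 members with too few reads for a test, 16 had some counts, and Cox7b2, Cox8c and the second Atp5o entry had none in any of the 18 libraries. Untested members included Ndufs5 and Uqcr10, Atp5d, the δ subunit of ATP synthase, and Atp5c1, the γ subunit that turns in its core. Exons of 35 of the 96 entries overlapped those of another gene, 14 of them over more than 10% of their length, and 22 shared more than 10% of their 50-base words with other annotated transcripts.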
